A study of Homo sapiens with 21 samples.

Results

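The regions described are the KHSRP clusters that the deposited annotation places in 3' UTRs. They were chosen by their region class in the 3 KHSRP fPAR-CLIP libraries, with earlier results of these data known. The rule used no read count and no T-to-C value. They number 26279 of 297238 KHSRP fPAR-CLIP clusters, and 855812 clusters stand in all files of the series. The libraries held 15433 of them at 0.15 U/ul RNase I, 8416 at 0.5 U/ul and 2430 at 1.5 U/ul.

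The series covers 5 RNA-binding proteins and a PAR-CLIP variant in which a fluorescent adapter takes the place of the radioactive label (fPAR-CLIP). All libraries used here came from Flp-In T-REx 293 cells, an established line derived from human embryonic kidney, which carried a stably integrated FLAG-HA tagged transgene of the protein and were pulled down with anti-FLAG beads. The cells were labelled with 100 uM 4-thiouridine for 8 to 12 h and irradiated with 0.3 J/cm2 of UVA or UVB light. The groups were KHSRP and FUBP3, each with 1 fPAR-CLIP library at 0.15, 0.5 and 1.5 U/ul RNase I, beside AGO2 fPAR-CLIP at 0.15 and 1.5 U/ul RNase I, CPSF1 fPAR-CLIP at 0.5 U/ul RNase I and radiolabelled KHSRP PAR-CLIP with 0.5 U/ul RNase T1. Per the labels' protocols, KHSRP cells were lysed in RIPA buffer with sonication, and 0.1 U/ul RNase I was added to the lysate for 10 min at 22 °C. The labels give NP40 lysis for cytoplasmic proteins and do not name FUBP3 there, so protein and lysis cannot be told apart between KHSRP and FUBP3. With 1 library per condition there was no spread between replicates, and no test was made. Each interval is a 95% Wilson interval for a share or density and a binomial order-statistic interval for a median, and it covers counting error only. Clusters were counted as independent even where they lay in one gene. The clusters list bound RNA and not expression, so the cell line was not checked against marker genes.

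KHSRP, also called KSRP, is a KH-domain protein known for binding AU-rich elements in 3' UTRs and for bringing decay enzymes to such mRNAs. It is also known as a splicing regulator in the nucleus and as a factor in the maturation of some microRNAs. FUBP3 belongs to the same protein family. In PAR-CLIP, a crosslinked 4-thiouridine appears in reads as C where the transcript has T, so T-to-C reads mark the bound stretch.

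The sequences at the best-read sites are shown first, as examples. The motif densities below were counted over whole sets of clusters or sites and not over these windows. A site is a merged stretch of 3' UTR clusters of the 3 doses sharing 1 nt or more on one strand. Of the 12 sites named by the rule in the methods, the 8 whose largest 1.5 U/ul cluster had the most reads are printed, as 30 nt around the position where that cluster's reads were most frequent. Letters are from the deposited cluster sequences, 5' to 3' along the transcript, in hg38 coordinates, and capitals mark TGTA.
SON, chr21:33558899-33558928, plus strand: aTGTAttccttctctTGTActagatTGTAa
HNRNPA2B1, chr7:26191940-26191969, minus strand: aaagctattagccaggatcatggTGTAata
PMAIP1, chr18:59904027-59904056, plus strand: ttaaagttacatttttgagttacaagagtc
ZNF529, chr19:36546684-36546713, minus strand: agtcatagctgatatatacttatagctttg
SLC38A2, chr12:46358711-46358740, minus strand: aTGTAcatatattgtctgtccataTGTAtt
SDE2, chr1:225983067-225983096, minus strand: gtttaacattaaaTGTAattattaataggt
CCNL2, chr1:1392571-1392600, minus strand: ctttggtaatcgtattgattagagttggta
HMGB2, chr4:173331930-173331959, minus strand: TGTAtagctgataagattctcTGTAgagaa
TGTA stood in 5 of these 8 windows, in SON, HNRNPA2B1, SLC38A2, SDE2 and HMGB2. Over the 12 named sites, 6 windows held it. Of those not printed, the CAPRIN1 window did and the ZNF711, HNRNPA1 and CPSF6 windows did not. Outside the window, the same clusters of PMAIP1, ZNF529 and ZNF711 held TGTA 3, 2 and 1 times. The SON window held it 3 times and the SLC38A2 and HMGB2 windows 2 times each. Among all KHSRP 3' UTR clusters of at least 30 nt, the same window held TGTA in 40.1% of 9704 clusters at 0.15 U/ul, 42.1% of 4841 at 0.5 U/ul and 35.3% of 1230 at 1.5 U/ul. KHSRP intron clusters had it in 32.5%, 34.0% and 27.1% of windows, and FUBP3 3' UTR clusters in 31.8%, 30.7% and 32.2%. The interval at 1.5 U/ul was 32.7% to 38.0% for KHSRP 3' UTRs and 31.2% to 33.3% for FUBP3, so these overlapped, while the intervals at the lower doses did not. At the KHSRP sites found at all 3 doses the share was 43.4%, 45.4% and 50.5% (44.8% to 56.3%) of windows.

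The 3' UTR was the second class after introns at 0.15 and 0.5 U/ul and was just below clusters with no annotation at 1.5 U/ul. It held 8.65% of KHSRP clusters and 11.8% of reads at 0.15 U/ul, 9.23% and 12.6% at 0.5 U/ul, and 8.77% and 10.3% at 1.5 U/ul. A 3' UTR cluster had a median of 10, 9 and 6 reads from the lowest to the highest dose, against 8, 7 and 6 reads in introns. The 3' UTR reads numbered 255900, 113773 and 20677 in the 3 libraries, so the library at 1.5 U/ul was the shallowest. The clusters named 4765, 3508 and 1669 genes, and 5621 genes in all. A single 3' UTR cluster was listed for 40.8% of the genes at 0.15 U/ul, 52.2% at 0.5 U/ul and 74.4% at 1.5 U/ul. The deposited gene name matched a RefSeq gene (GRCh38.p14) that overlapped the cluster for 99.4%, 99.3% and 99.5% of the clusters. Their centres lay at a median of 1714.5, 1750 and 1754 nt before the 3' end of that gene span, against 1569, 1523.5 and 1557 nt for FUBP3 3' UTR clusters. The intervals, which treat clusters of a gene as independent and hold no spread between libraries, did not overlap at any dose. At 0.15 U/ul they were 1661.5 to 1760.5 nt for KHSRP and 1538.5 to 1600.5 nt for FUBP3. At 0.5 U/ul they were 1684.5 to 1814 and 1497 to 1554.5 nt, and at 1.5 U/ul 1640.5 to 1868.5 and 1517 to 1596 nt. Within 100 nt of the gene's end lay 7.25%, 7.16% and 5.09% of KHSRP clusters and 5.97%, 6.92% and 5.68% of FUBP3 clusters.

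The clusters were short at every dose. The median length was 32 nt at 0.15 U/ul, 31 nt at 0.5 U/ul and 30 nt at 1.5 U/ul, with interquartile ranges of 27 to 40, 27 to 36 and 27 to 33 nt. The intron clusters of the same libraries had a median of 30 nt at each dose. The longest 3' UTR cluster had 686 nt at 0.15 U/ul, 510 nt at 0.5 U/ul and 205 nt at 1.5 U/ul, and clusters over 100 nt numbered 511, 128 and 2. Length moved with reads per cluster. At 0.15 U/ul the median was 27 nt in clusters of 5 reads and 112 nt in clusters of at least 50 reads, and at 1.5 U/ul the same groups had 29 nt and 91.5 nt. The file values show that every cluster had at least 5 reads, of which at least 4 carried T-to-C.

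T-to-C values were high where reads were few. The median T-to-C value of a 3' UTR cluster was 77.8% of reads at 0.15 U/ul (77.8% to 78.6%), 83.3% at 0.5 U/ul (83.3% to 85.7%) and 100% at 1.5 U/ul. A cluster of 5 reads cannot lie under 80% because of the minimum of 4 T-to-C reads, so values are also given by reads per cluster. In clusters of 10 to 19 reads, pooled T-to-C was 68.9%, 70.3% and 73.6% from the lowest to the highest dose. Clusters of at least 50 reads had 57.0% (692 clusters), 56.5% (237 clusters) and 47.1% (10 clusters), so the order of the doses at few reads was not kept there. Intron clusters of at least 50 reads had higher pooled values at each dose, 61.1%, 61.6% and 67.0%, the last from 28 clusters. The distinct read sequences per 3' UTR cluster had a median of 5, 4 and 2, and 7.76%, 14.9% and 48.2% of clusters rested on a single distinct sequence.

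**Figure D1:**
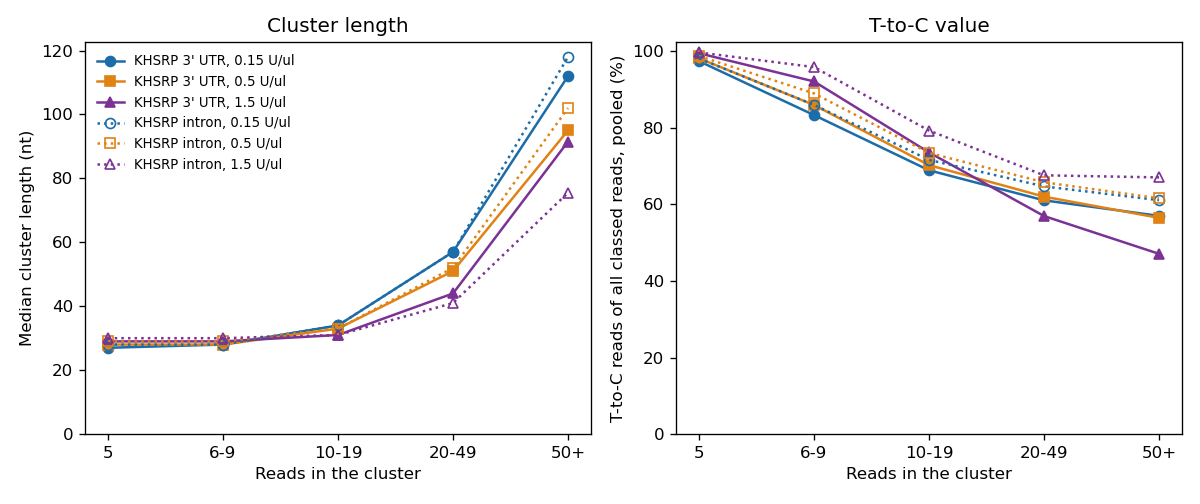
Median cluster length in nt (left) and pooled T-to-C reads in percent (right) against reads per cluster, for KHSRP 3' UTR clusters (filled, solid lines) and KHSRP intron clusters (open, dotted lines) at 3 RNase I doses, 1 library each. Length is 27 to 29 nt in 3' UTR clusters of 5 reads and 91.5 to 112 nt at 50 reads or more, while T-to-C is lower the more reads a cluster has.

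Between doses, 445 sites were met in all 3 libraries, which is 2.06% of 21605 merged 3' UTR sites. Over KHSRP sites of any region class the share was 0.958% of 264492. A further 3178 sites were met at 2 doses and 17982 at 1 dose. The 445 sites lay in 334 genes, with 1 site in 263 genes and 3 or more in 21. ZNF207 and CPSF6 had 6 such sites each, and CREBZF, ETNK1 and HNRNPA2B1 had 5 each. Clusters at these sites were 3.21% of the 3' UTR clusters at 0.15 U/ul, 7.16% at 0.5 U/ul and 21.4% at 1.5 U/ul, and they held 16.1%, 21.0% and 32.3% of the 3' UTR reads. Their median reads were 46, 24 and 9, against 9, 7 and 6 in clusters met at 1 dose. Their median lengths were 77, 47 and 30 nt, against 30, 29 and 29 nt. Covered length was smaller at each higher dose at 291 of the 445 sites, with a median per site of 83, 62 and 31 nt. A stretch covered in all 3 libraries existed at 387 sites and had a median of 28 nt. At 1.5 U/ul, 73 of the sites rested on 1 distinct sequence.

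Whether a cluster was met at another dose moved with its reads. Of the 15433 clusters at 0.15 U/ul, 21.1% overlapped a 3' UTR cluster at 0.5 U/ul and 5.12% one at 1.5 U/ul. Among those with at least 50 reads the shares were 83.2% and 37.0%, and with at least 100 reads 90.1% and 58.5%. Intron clusters of the same library had 12.8% and 2.61% in all, and 82.2% and 30.0% at 50 reads or more. Seen from the highest dose, 34.7% of the 3' UTR clusters at 1.5 U/ul overlapped one at 0.15 U/ul, and 62.0% of those with at least 10 reads did. The share of intron clusters was 18.5%, and 46.5% at 10 reads or more.

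**Figure D2:**
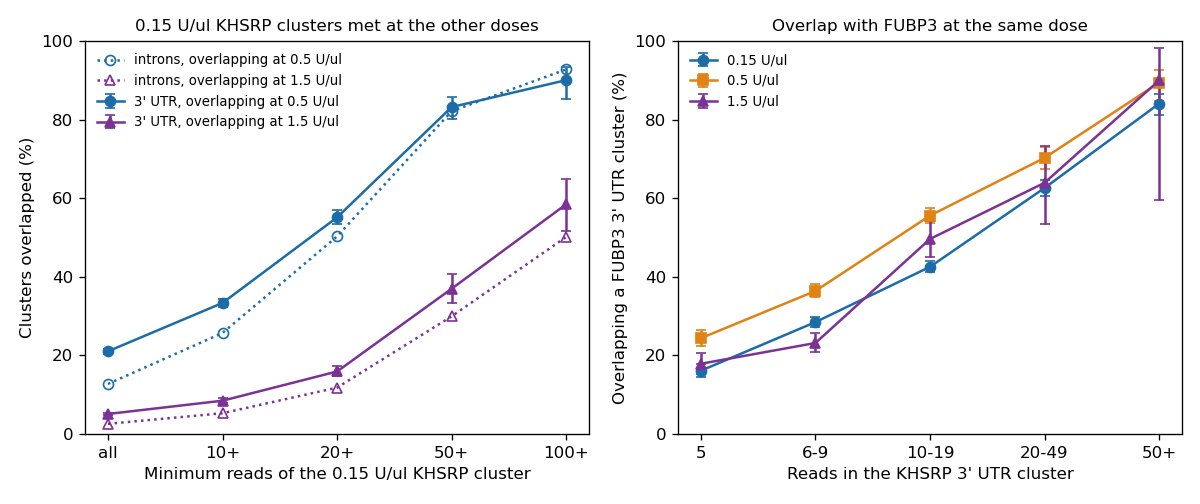
Left, share in percent of 0.15 U/ul KHSRP clusters that overlapped a KHSRP cluster at 0.5 or 1.5 U/ul, by minimum reads, for 3' UTRs (filled, with 95% Wilson bars) and introns (open, dotted). Right, share of KHSRP 3' UTR clusters overlapping a FUBP3 3' UTR cluster at the same dose, by reads per KHSRP cluster, from 16.1% to 24.4% at 5 reads up to 84.1% to 90.0% at 50 reads or more.

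The best-read site lay in the 3' UTR of PMAIP1, the proapoptotic protein also called NOXA, at chr18:59903748-59904294 on the plus strand. It had 1310, 1036 and 292 reads from the lowest to the highest dose, or 0.512%, 0.911% and 1.41% of all 3' UTR reads. At 0.15 and 0.5 U/ul it was a single cluster of 547 and 510 nt, and at 1.5 U/ul it was 5 clusters that covered 298 nt. The next site, in HNRNPA2B1, which encodes an hnRNP protein of pre-mRNA, lay at chr7:26191623-26192117 on the minus strand with 1094, 497 and 279 reads. Its clusters at 0.5 U/ul lay at nt 1 to 111 and 328 to 448 of the site, counted from the 5' end, and the best-read cluster at 1.5 U/ul lay at nt 138 to 342 and overlapped the second of them. In all, 64 nt of the site were covered at all 3 doses. SON, a nuclear speckle protein needed for splicing, had its site at chr21:33558775-33558950 on the plus strand with 342, 283 and 251 reads. A single cluster at nt 118 to 175 of the site held 230 of the 251 reads at 1.5 U/ul, and the SON window printed above comes from it. T-to-C at the SON site was 36.3%, 39.4% and 32.7%, lower than the 48.8%, 53.6% and 57.5% at PMAIP1.

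**Figure D3:**
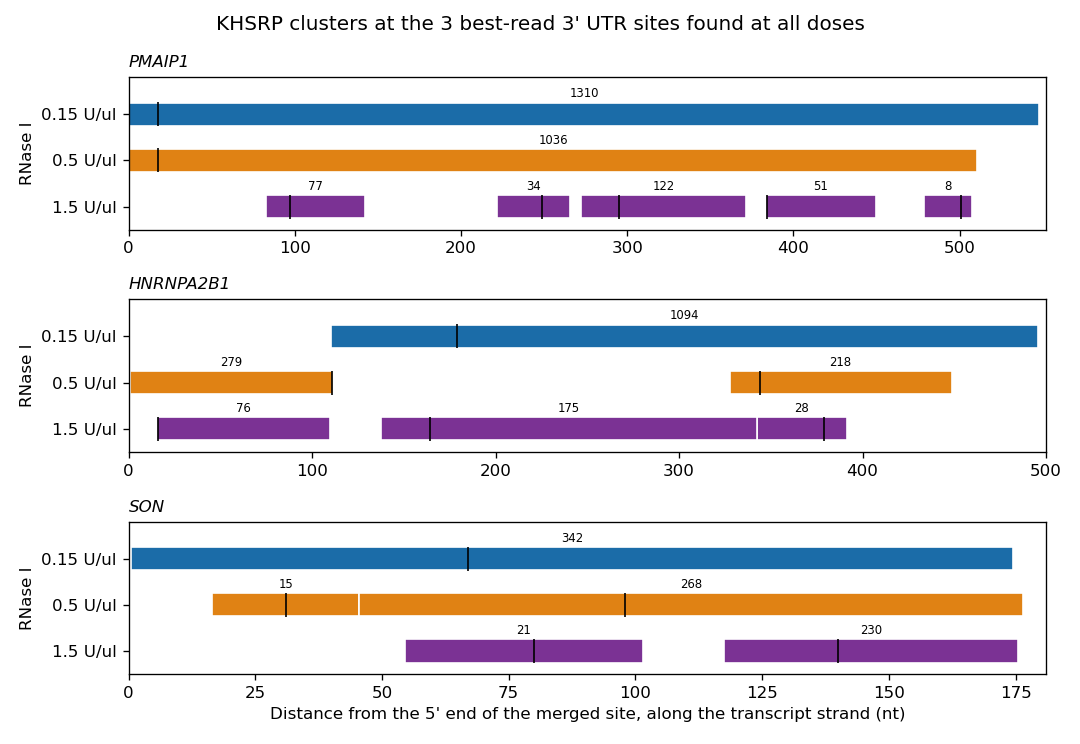
Clusters at the sites of PMAIP1, HNRNPA2B1 and SON, drawn to scale in nt from the 5' end of the merged site, with 1 row per RNase I dose, reads above each bar and a black tick at the position read most often. PMAIP1 is 1 cluster at 0.15 and at 0.5 U/ul and 5 clusters at 1.5 U/ul.

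The other named sites had fewer reads. ZNF711, a zinc finger protein gene, had 863, 471 and 60 reads. SDE2 had 538, 366 and 85, CCNL2, a cyclin L gene, 696, 312 and 54, and HNRNPA1 766, 285 and 50. HMGB2, a chromatin protein of the high mobility group, had 481, 158 and 81 reads, and ZNF529 283, 233 and 83. These counts fall with dose as the library totals do, but not by an equal factor. From 0.15 to 1.5 U/ul, shares of 3' UTR reads rose at SDE2 (0.210% to 0.411%), HMGB2 (0.188% to 0.392%) and ZNF529 (0.111% to 0.401%). They fell at ZNF711 (0.337% to 0.290%), CCNL2 (0.272% to 0.261%) and HNRNPA1 (0.299% to 0.242%). The CPSF6 site, in the mRNA of a subunit of cleavage factor I, had 883 and 347 reads at the lower doses but 9 reads of 2 distinct sequences at 1.5 U/ul. By distinct sequences, the amino acid transporter gene SLC38A2 (270, 220 and 61 reads) and CAPRIN1 (203, 133 and 55 reads), which encodes a stress granule protein, were also named. All 12 named sites, which were picked for many reads or distinct sequences, had FUBP3 clusters at every dose and a KHSRP cluster in the RNase T1 library. Of all 445 sites found at all doses, 77.8%, 79.3% and 68.1% overlapped a FUBP3 3' UTR cluster at 0.15, 0.5 and 1.5 U/ul. The RNase T1 library met 33.9% of them.

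By gene, 15 genes held 7.65%, 8.73% and 11.6% of the 3' UTR reads at the 3 doses. Shares are of reads and not per length of the 3' UTR, so they do not rank binding between genes. HNRNPA2B1 had 1986, 1027 and 351 reads, or 0.776%, 0.903% and 1.70% of 3' UTR reads. PMAIP1 had 1655, 1089 and 366 reads, or 0.647%, 0.957% and 1.77%. SON had 835, 650 and 288 reads, or 0.326%, 0.571% and 1.39%. In all 3 genes the share was largest at 1.5 U/ul. ZNF207, which encodes a kinetochore and spindle protein, had 2017, 827 and 127 reads spread over 54, 45 and 12 clusters, and its share was 0.788%, 0.727% and 0.614%. CPSF6 had 2078, 924 and 66 reads, with 0.812% at both lower doses and 0.319% at 1.5 U/ul. HNRNPA1 had 0.704%, 0.605% and 0.648%, with the largest share at 0.15 U/ul. SRSF2, an SR splicing factor, had 0.368%, 0.410% and 0.498%, with the largest share at 1.5 U/ul. The remaining members were SRSF1, the transcription factor gene CREBZF, LUC7L3, whose protein associates with the U1 snRNP, ZNF711, the bromodomain gene BRWD1, the Cullin 3 adaptor gene KLHL15, the pantothenate kinase gene PANK3, and BCLAF1.

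The part of a gene's KHSRP reads that lay in its 3' UTR ranged widely among these genes. It was 100%, 98.9% and 100% in SRSF2 and 94.1%, 96.3% and 98.4% in PMAIP1. SON had 19.4%, 32.8% and 49.3% of its reads there, and ZNF711 had 12.7%, 16.2% and 24.1%. Over all 5621 genes the median was 25% with the doses summed.

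**Figure D4:**
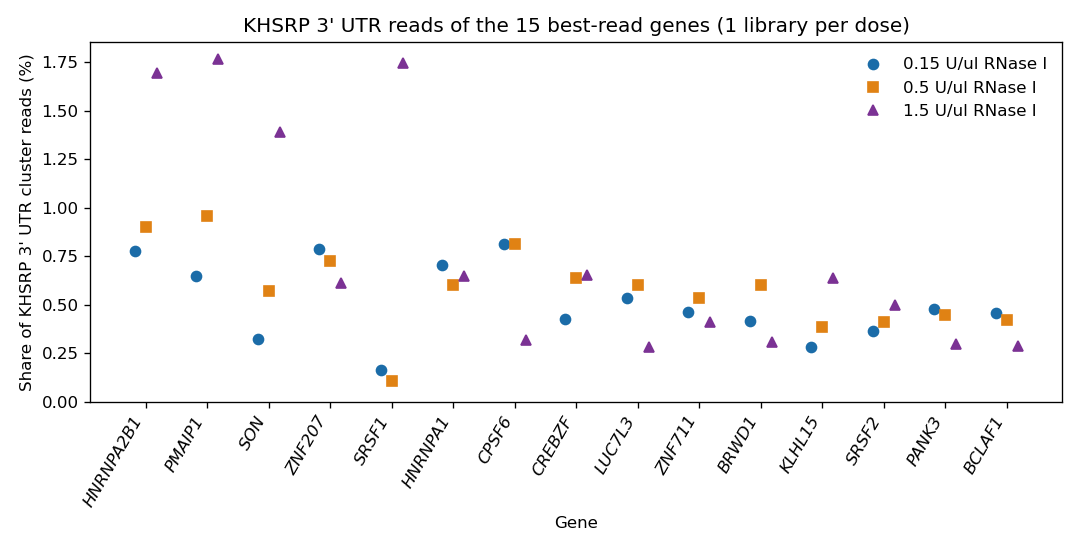
Share of KHSRP 3' UTR reads in percent for the 15 genes with the highest mean share, 1 point per RNase I dose and library. HNRNPA2B1, PMAIP1, SON and SRSF1 reach 1.39% to 1.77% at 1.5 U/ul, and the other genes stay under 1% at every dose.

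SRSF1, an SR splicing factor, shows that the region class was given cluster by cluster. It had 424, 124 and 361 3' UTR reads, or 0.166%, 0.109% and 1.75%. At 1.5 U/ul, 268 of its reads lay in a cluster at chr17:58005083-58005246 classed as 3' UTR. The overlapping clusters at the lower doses had other classes: 1460 reads in 316 nt classed as stop codon and 86 reads in 108 nt classed as lincRNA at 0.15 U/ul, and 904 reads in 389 nt classed as lincRNA at 0.5 U/ul. On the same stretches with clusters of any class, the log2 of the SRSF1 share at 1.5 over 0.15 U/ul was 0.78, against 3.40 for clusters classed as 3' UTR. Over all genes, clusters of another class on stretches classed as 3' UTR in any KHSRP or FUBP3 library numbered 114, 54 and 10, with 9272, 2633 and 85 reads.

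Among 40 genes with at least 50 3' UTR reads at both 1.5 and 0.15 U/ul, 14 had a share more than 2-fold higher at 1.5 U/ul (35%) and 1 had a share more than 2-fold lower (2.5%). Over genes counted with clusters of any class, 10.8% of 826 were higher and 6.17% lower. The minimum of 50 reads is 0.242% of the 3' UTR reads at 1.5 U/ul and 0.0195% at 0.15 U/ul, so it admits genes with a large share at 1.5 U/ul. Chosen instead by 50 reads at 0.5 U/ul, a rule added after the data were seen, 393 genes with reads at both other doses had 83 higher and 65 lower at a median log2 of -0.09, and another 130 genes had no 3' UTR read at 1.5 U/ul. Furthest up were NUDT3, a phosphohydrolase of diphosphoinositol polyphosphates (50 reads at 1.5 and 51 at 0.15 U/ul, log2 3.60), SRSF1 (3.40), CCNT1, the cyclin of P-TEFb (68 and 115 reads, 2.87), SON (288 and 835 reads, 2.09) and RCN2, a calcium-binding protein of the endoplasmic reticulum (57 and 169 reads, 2.06). CPSF6 (66 and 2078 reads) fell by 1.35 on the log2 scale. LUC7L3 (-0.93), PANK3 (-0.68), BCLAF1 (-0.66) and BRWD1 (-0.43) were the next lowest and did not pass 2-fold.

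The 8 gene lists were described by how many members had 3' UTR clusters. They were chosen with earlier results of these data known. Of 5606 genes with KHSRP clusters of any class at all 3 doses, 20.1% had a 3' UTR cluster at all 3 doses. Whether a gene without clusters was expressed was not tested, and mRNA abundance was not measured in these files.

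Of 41 mRNAs known for AU-rich elements, 29 had a KHSRP cluster of any class at some dose. A 3' UTR cluster was listed for 27 at some dose, 26 at 0.15, 18 at 0.5 and 16 at 1.5 U/ul, against 5621 of 11949 genes at some dose. At all 3 doses 13 had one, which is 76.5% of the 17 with clusters of any class at all doses. In FUBP3 the same count was 27 of 29, against 50.6% of 8442 genes. JUN, a subunit of the AP-1 transcription factor, had 324, 131 and 37 3' UTR reads, and 98.2%, 94.2% and 100% of its KHSRP reads lay there. MYC had 124, 142 and 25 reads, all in its 3' UTR. CCND1, which encodes cyclin D1, had 255, 114 and 43 reads. MCL1, an antiapoptotic gene, had 257, 116 and 28, and CTNNB1, which encodes beta-catenin, 82, 109 and 21. The list together held 0.743%, 0.899% and 1.47% of the 3' UTR reads. Among the 14 members with none were the cytokine genes TNF, IL6, CSF2 and CXCL8 and the immediate early gene FOS.

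Of 29 SR and hnRNP genes, 27 had a KHSRP cluster of any class and 26 a 3' UTR cluster at some dose, against 5621 of 11949 genes. A 3' UTR cluster at all 3 doses was listed for 19, or 76.0% of the 25 with clusters of any class at all doses, and in FUBP3 for 26 of 27. They held 4.22%, 4.17% and 6.35% of the 3' UTR reads and 27 of the 445 sites found at all doses. HNRNPU had 730, 456 and 21 reads, while HNRNPL, HNRNPR and SRSF9 had none.

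Among 16 genes of AU-rich element binding proteins, 9 had a 3' UTR cluster at all doses (64.3% of 14), and in FUBP3 12 of 14 did. HNRNPDL had 584, 379 and 33 reads, HNRNPD, also called AUF1, 266, 151 and 33, and ZFP36L2, a zinc finger decay factor, 114, 97 and 14. CELF1 had 205, 58 and 26 and RC3H1, which encodes roquin, 115, 97 and 24. Of 33 mRNA decay genes 6 had one at all doses, which is 28.6% of 21, against 20.1% over all genes, and in FUBP3 15 of 28 did (53.6%), against 50.6%. DCP2, the decapping enzyme, had 447, 196 and 45 reads, CNOT6, a deadenylase, 187, 43 and 16, EXOSC6, an exosome subunit, 161, 76 and 6, XRN1, the cytoplasmic exonuclease, 72, 16 and 13, and DCP1A 29, 35 and 5. The DCP1A reads at 1.5 U/ul were of 1 distinct sequence. Of the microRNA machinery 5 genes had one at all doses (41.7% of 12), and in FUBP3 9 of 13 did. These were DICER1 with 232, 51 and 6 reads, AGO2 with 131, 41 and 5, TNRC6A with 90, 37 and 5, LIN28B with 36, 16 and 12, and AGO1 with 9, 6 and 9. At 1.5 U/ul the reads of DICER1, AGO2, TNRC6A and AGO1 were each of 1 distinct sequence, and those of LIN28B of 2. The microRNA machinery list of 19 names holds 4 older names of the AGO genes, which the files do not use. Of the 3 FUBP family genes 2 had one at all doses, and likewise in FUBP3. KHSRP itself had 35, 21 and 44 3' UTR reads, and FUBP1 7, 302 and 30. Of 10 high mobility group genes 6 had clusters of any class at all doses, and 3 of these (50%) had 3' UTR clusters at all doses, HMGB2, HMGB1 (6, 16 and 16 reads) and HMGN3 (21, 5 and 7), while in FUBP3 7 of 9 did. Of 11 tubulin and actin genes the count was 1 of 3 (33.3%), ACTG1 (209, 143 and 43 reads), and in FUBP3 5 of 8.

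In base composition the 3' UTR clusters had 39.4%, 40.7% and 37.2% T, 29.3%, 28.8% and 27.5% A, and 18.4%, 18.9% and 22.0% G at the 3 doses. Motifs were counted on the transcript strand, with overlapping matches, per 1000 positions of cluster sequence. TGTAT had 7.12 matches (6.90 to 7.35) at 0.15 U/ul, 8.56 (8.21 to 8.92) at 0.5 U/ul and, with the highest dose, 6.76 (6.16 to 7.43). KHSRP intron clusters had 5.95, 6.51 and 4.53, all below these intervals. FUBP3 3' UTR clusters had 5.48, 5.31 and 5.94 (5.72 to 6.17), and at 1.5 U/ul the intervals of the 2 proteins overlapped. Among clusters of 25 to 35 nt, TGTAT stood in 15.7%, 17.2% and 13.4% of KHSRP 3' UTR clusters and in 12.1%, 11.7% and 13.3% of FUBP3 ones. TGTANA, which begins the known binding sequence of Pumilio proteins and shares TGTA with TGTAT, had 7.00, 8.26 and 6.72 matches in KHSRP 3' UTRs, 4.65, 5.01 and 3.89 in KHSRP introns and 4.63, 4.54 and 4.86 in FUBP3 3' UTRs. It stood in 15.1%, 16.5% and 13.7% of KHSRP 3' UTR clusters of 25 to 35 nt, against 9.67%, 9.54% and 10.9% of FUBP3 ones.

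The AU-rich pentamer ATTTA differed less. It had 4.44, 4.93 and 4.29 matches per 1000 in KHSRP 3' UTR clusters, against 4.38, 5.03 and 4.30 in KHSRP introns and 4.12, 4.01 and 4.18 in FUBP3 3' UTRs, and it stood in 11.1%, 12.0% and 9.15% of the KHSRP clusters of 25 to 35 nt. The ATTTA intervals of KHSRP and FUBP3 3' UTRs were apart at 0.15 U/ul (4.26 to 4.62 and 4.00 to 4.25). They were also apart at 0.5 U/ul (4.67 to 5.21 and 3.89 to 4.12) and overlapped at 1.5 U/ul. The longer TTATTTA had 0.592, 0.788 and 0.676. TTTTT had 7.30, 8.27 and 7.39 in KHSRP, against 12.3, 11.7 and 14.3 in FUBP3, where it was the densest of the 1024 pentamers. TTGTT had 6.03, 6.71 and 5.70 in KHSRP, and the polyadenylation signal AATAAA 1.32, 1.17 and 1.06. GGG had 6.41 and 7.95 at the lower doses and 16.6 at 1.5 U/ul, and introns (16.3) and FUBP3 3' UTRs (13.6) were also high at 1.5 U/ul.

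Ranked by mean density over the doses, the densest pentamers in KHSRP 3' UTR clusters were TTTGT (7.76), TGTTT (7.68), TTTTT (7.65), TGTAT (7.48) and TTTTA (7.35). Of the pentamers with a mean of at least 2 per 1000 in KHSRP 3' UTR clusters, TAAAG (1.66) and TATAG (1.65) had the highest ratio over FUBP3 3' UTRs. GTATA (1.57), GTAAA (1.54) and ATGTA (1.54) came next. The minimum was set on KHSRP only, so it admits pentamers that are high in KHSRP. TAAAG and TATAG had FUBP3 means of 1.35 and 1.67, below that minimum. Over KHSRP introns the ratios of these 5 were 1.14, 0.92, 1.23, 1.58 and 1.29. By dose, the ratio over FUBP3 was 1.59, 1.58 and 1.86 for TAAAG and 1.32, 2.09 and 1.62 for TATAG. It was 1.47, 1.71 and 1.44 for ATGTA and 1.51, 1.65 and 1.35 for TGTAA. The lowest ratios over FUBP3 were those of TTTTT (0.60), TTTTC (0.654) and CTTTT (0.690).

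TGTAT density moved with reads and with recovery. It was 4.85 per 1000 in clusters of 5 reads at 0.15 U/ul and 7.48 in those of at least 50 reads, and 5.38 and 9.99 at 0.5 U/ul. At 1.5 U/ul it was 5.37 (4.45 to 6.48) at 5 reads and 12.0 (8.91 to 16.1) at 20 to 49 reads, and the 10 clusters above that gave 10.6. TTTTT was also denser with more reads. At 5 reads and at 50 or more it was 5.44 and 9.02 at 0.15 U/ul, and 7.19 and 9.31 at 0.5 U/ul. At 1.5 U/ul it was 5.32 at 5 reads and 11.7 at 20 to 49 reads. ATTTA at 0.15 U/ul was 3.92 in clusters of 5 reads and 3.86 in those of at least 50. At sites found at all doses, the stretches covered in all 3 libraries (11955 nt) had 14.2 TGTAT per 1000 (12.0 to 16.6), against 6.15 (5.42 to 6.98) in the rest of those sites (42194 nt). TGTANA had 13.3 and 6.79, and TTGTT 8.16 and 4.88. TTTTT had 9.04 (7.38 to 11.1) and 10.2 (9.25 to 11.3), and ATTTA 4.82 (3.65 to 6.36) and 3.98 (3.40 to 4.66), so their intervals overlapped. T made up 42.4% and 40.2% of the letters, and G 19.8% and 16.8%.

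Many KHSRP 3' UTR clusters overlapped a FUBP3 3' UTR cluster of the same dose. The shares were 39.1% at 0.15 U/ul (38.3% to 39.9%), 45.3% at 0.5 U/ul (44.3% to 46.4%) and 27.9% at 1.5 U/ul (26.2% to 29.7%). Of the FUBP3 3' UTR clusters, which numbered 30712, 34014 and 16601, 20.1%, 11.0% and 4.17% overlapped one of KHSRP. KHSRP intron clusters overlapped FUBP3 intron clusters in 7.51%, 9.35% and 4.24%. By reads per KHSRP cluster the 3' UTR share at 0.15 U/ul was 16.1% at 5 reads and 84.1% at 50 reads or more. KHSRP clusters shared with FUBP3 had 7.89, 9.75 and 9.82 TGTAT per 1000, against 6.37, 7.26 and 5.48 in KHSRP clusters that were not shared. TTTTT was denser in the shared KHSRP clusters as well, with 8.20, 9.09 and 9.67, against 6.43, 7.37 and 6.43. Shared and other clusters were not compared at equal reads. FUBP3 clusters not shared with KHSRP had 4.68, 4.77 and 5.77, and their TTTTT density was 13.0, 11.9 and 14.4, against 6.43, 7.37 and 6.43 in KHSRP clusters not shared with FUBP3.

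Other libraries met fewer of the clusters. Such shares depend on how many clusters a library holds, and libraries were not set to equal numbers. They therefore do not rank how alike the libraries are. The radiolabelled RNase T1 library of KHSRP met 5.61%, 7.11% and 7.41% of the 3' UTR clusters, against 2.40%, 2.81% and 1.91% of the intron clusters, and it met 33.9% of the 445 sites found at all doses. CPSF1 clusters met 2.00%, 1.94% and 1.56%. AGO2, the protein that carries microRNAs, met 177 of 15433 at 0.15 U/ul and 26 of 2430 at 1.5 U/ul. Seen from AGO2, 19.8% of its 939 3' UTR clusters at 0.15 U/ul overlapped a KHSRP 3' UTR cluster and 34.2% a FUBP3 one, and at 1.5 U/ul 3.25% and 19.9% of 708.

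Set gene by gene against FUBP3, 36 genes had at least 50 3' UTR reads in all 6 libraries. At all 3 doses 11 had a share more than 2-fold higher in KHSRP (30.6%) and 0 a share more than 2-fold lower. With clusters of any class, 17.7% of 789 genes were higher and 0.634% lower. The minimum is a larger share of the KHSRP 3' UTR reads (0.0195%, 0.0439% and 0.242%) than of the FUBP3 ones (0.00799%, 0.00684% and 0.0203%), so it admits genes that are high in KHSRP. With the median gene ratio of each dose set to 1, 3 genes were higher and 3 lower.

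LUC7L3 had 1371, 687 and 58 KHSRP reads and 256, 181 and 109 FUBP3 reads, with log2 ratios of KHSRP over FUBP3 shares of 3.71, 4.61 and 2.67. ZNF207 had 2.78, 2.77 and 2.63. AEBP2, a partner of the Polycomb repressive complex, had 2.73, 3.51 and 2.35, and HNRNPA1 2.70, 2.32 and 3.04. TNPO1, a nuclear import receptor gene, had 2.53, 1.57 and 1.65, BRWD1 2.11, 2.69 and 1.61, BCLAF1 2.45, 2.25 and 1.47, and C5orf24 1.38, 1.54 and 1.41. The other 3 of the 11 were CREBZF, SRSF1 and PNN. With the median gene ratio set to 1, LUC7L3, ZNF207 and HNRNPA1 stayed past 2-fold at all doses and the other 8 genes did not. At 1.5 U/ul the scaled log2 ratio was then 0.90 in AEBP2, 0.20 in TNPO1, 0.16 in BRWD1, 0.023 in BCLAF1 and -0.0352 in C5orf24. HNRNPA2B1 had ratios of 0.70, 5.49 and 3.51, since FUBP3 had 2982, 147 and 368 reads there. At its best-read site FUBP3 clusters of any class held 2951, 38 and 319 reads. PMAIP1 had -0.45, 0.30 and 1.13, and KLHL15 -1.30, -0.71 and -0.13, with 727, 441 and 132 KHSRP reads and 4370, 4622 and 1726 FUBP3 reads. SCML1 had -1.28, -0.14 and -0.26, and TMPO -0.73, -0.50 and -0.36. KLHL15, SCML1 and TMPO were the 3 genes below 0 at all doses, and 22 genes were above 0 at all doses.

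**Figure D5:**
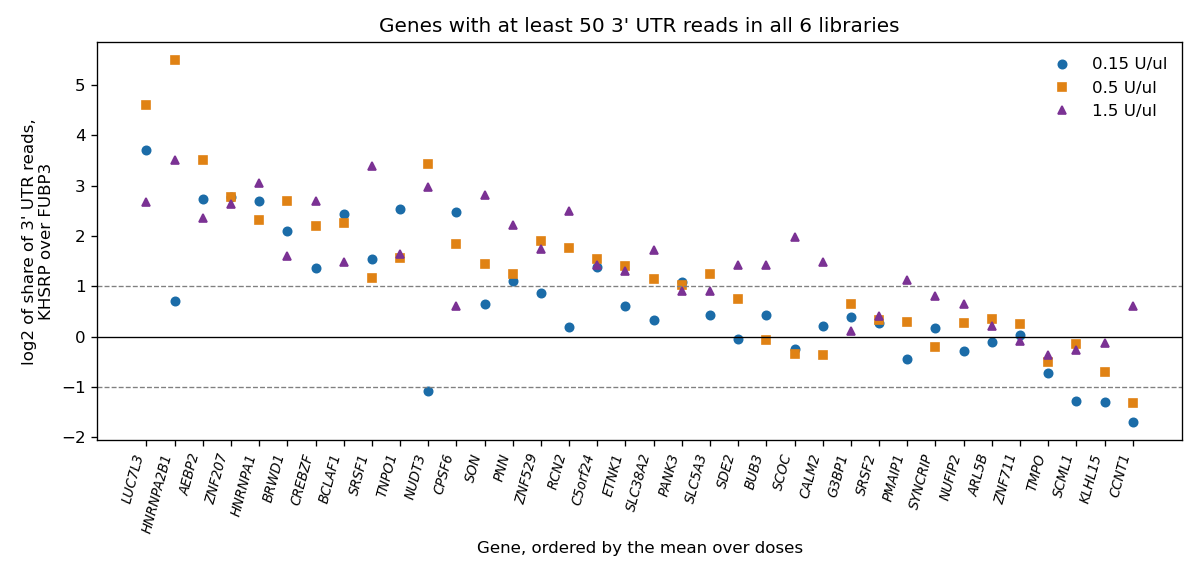
log2 ratio of the share of 3' UTR reads, KHSRP over FUBP3, for the 36 genes with at least 50 3' UTR reads in all 6 libraries, 1 point per RNase I dose, with dashed lines at 2-fold. LUC7L3, AEBP2, ZNF207 and HNRNPA1 lie between 2.32 and 4.61 at every dose, while KLHL15, SCML1 and TMPO lie below 0 at every dose.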

How the data were processed

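Clusters were taken from 10 of 17 cluster files of hg38 libraries, and 4 samples without a file and the other files were not analysed here. The deposited values were raw read counts per cluster and a T-to-C fraction, which in 100% of KHSRP clusters equalled T-to-C reads over all classed reads of the cluster. Each file held 1 library, and samples were grouped by protein, nuclease and dose per the labels. Per the submitters' processing notes, bcl2fastq 2.20.0, cutadapt 1.15 and hg38 were used. Which aligner, cluster caller and annotation were used is not given in the sources used here. Reads outside clusters were not used, so shares are of reads in clusters, whose totals were 2172248, 905433 and 200210 in the KHSRP libraries. The members and gene lists were chosen with earlier results of these data known.

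Clusters overlapped when they shared at least 1 nt on a strand. Where clusters of the other 9 libraries overlapped the KHSRP 3' UTR clusters of 0.15 U/ul, 100% of the shared positions carried an identical letter. Genes past 2-fold needed at least 50 3' UTR reads per library compared. Named were the 15 genes with the highest mean share, the 10 all-dose sites with the highest mean share and the 10 with most distinct sequences at their poorest dose (12 sites in all), the 5 genes furthest each way between doses, the 8 furthest each way against FUBP3, and up to 5 members of each list with clusters at all doses. Alternatives were at least 10 reads or 3 distinct sequences per cluster, 50% overlap, any region class, distinct sequences in place of reads, 10 reads per gene and ratios scaled to the median gene. Gene ends came from RefSeq GRCh38.p14. Counting functions were tested on simulated clusters. Software was Python 3.11.15, numpy 2.4.6, pandas 2.3.3, scipy 1.17.1 and matplotlib 3.10.9.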

Additional observations from a re-analysis of the deposited data

How the results depend on the processing

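With only 1 library per dose, differences between doses or proteins cannot be separated from differences between libraries, and the 20677 3' UTR reads at 1.5 U/ul limit what was met there. No paired analysis was possible because each condition compared had 1 library, and the labels' replicate letters belong to AGO2 libraries not used here. Values are given from the lowest to the highest dose.

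With at least 10 reads per cluster, the 3' UTR share was 12.3%, 14.7% and 17.5% of clusters and 14.3%, 16.9% and 17.1% of reads. Median length was then 40, 37 and 32 nt, median T-to-C 65.5%, 66.7% and 70%, TGTAT density 7.69, 9.99 and 10.1 per 1000 and overlap with FUBP3 43.7%, 55.9% and 47.3%, and 208 sites were met at all doses. With at least 3 distinct sequences the 3' UTR share was 10.7%, 13.0% and 17.7% of clusters and 13.2%, 15.6% and 17.5% of reads. Median length was then 33, 32 and 31 nt, median T-to-C 71.4%, 72.7% and 75%, TGTAT density 7.56, 9.77 and 9.88 and overlap with FUBP3 34.1% at 0.15 U/ul and 39.6% at 1.5 U/ul, and 279 sites were met. Both minima leave fewer clusters by construction, and 8054, 3689 and 531 3' UTR clusters had at least 10 reads. Counted by distinct sequences, the 3' UTR share was 12.7%, 14.1% and 12.1%. Pooled over clusters, T-to-C was 66.9%, 70.6% and 82.0%.

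With overlap over 50% of both clusters, 20.7%, 21.3% and 16.6% overlapped FUBP3, and 100 clusters at 0.15 U/ul, counted in place of sites, had a match at both other doses. Allowing any class at the other doses gave 469 sites, and 13 and 12 genes were higher in the gene comparisons with any class on the same stretches.

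For 1.5 over 0.15 U/ul, at least 10 reads per gene gave 255 genes higher and 16 lower of 539, median scaling gave 8 and 4 of 40, and choice at 0.5 U/ul gave 83 and 65 of 393. For KHSRP over FUBP3, at least 10 reads gave 82 higher and 2 lower of 446, and median scaling 3 and 3 of 36. C5orf24 turned to -0.0352 on the log2 scale at 1.5 U/ul under median scaling. The choice at 0.5 U/ul and both settings with clusters of any class were added after seeing the data. The cause of these changes was not tested.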

Other observations

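At 0.5 U/ul the FUBP1 3' UTR had 302 KHSRP reads in 1 cluster, against 7 reads at 0.15 U/ul and 30 at 1.5 U/ul, although the 0.15 U/ul library was the deepest. The 3' UTR held 0.101%, 9.30% and 7.18% of FUBP1's KHSRP reads at the 3 doses. Clusters of any class on the same stretches held 758 reads at 0.15 U/ul. With them, the log2 ratio of KHSRP over FUBP3 for FUBP1 was 3.33 at 0.15 U/ul and 3.64 at 0.5 U/ul. For KHSRP's own 3' UTR it was -0.31, -0.24 and 2.50, and for HMGB1 -3.06, -0.16 and 2.29. These genes were singled out after their values were seen.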
